A study of Talinum fruticosum with 24 samples.

Results

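Cytochrome P450 enzymes are haem proteins of the endoplasmic reticulum and the plastid that insert an oxygen atom into a substrate, usually with electrons passed on by an NADPH-dependent P450 reductase or by cytochrome b5. Plants hold very large P450 families, whose members make and break down hormones, hydroxylate carotenoids and lignin precursors, oxidise fatty acids for cutin and suberin, and decorate terpenoids and defence compounds. The members described here are the genes of the deposited table whose short description begins with cytochrome P450. P450 genes of abscisic acid hydroxylation, cutin, wax and flavonoid synthesis were left out. Of 143 genes with such a description, 8 were left out and 135 members remained, out of 22079 genes in the table. Of the members, 12 had no count in any library, 4 are described as pseudogenes, 96 had enough counts to be tested and 39 did not. The table lists Arabidopsis thaliana gene identifiers for a plant of another family, so each value is that of the Talinum reads the authors assigned to an Arabidopsis gene, and the roles given below are those known from Arabidopsis.

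The RNA came from mature leaves of Talinum triangulare, named Talinum fruticosum in the labels, a plant that can use C3 photosynthesis or crassulacean acid metabolism (CAM), in which carbon dioxide is taken up at night. Leaves of the CAM groups came from plants after 12 d of drought, and leaves of the reC3 groups from plants after 12 d of drought followed by 2 d of re-watering. Both were well watered before the drought, and both were sampled 4 times, at midday (MD, 6 h after dawn in zeitgeber time), dusk or end of day (ED, at 12 h), midnight (MN, at 18 h) and dawn or end of night (EN, at 24 h), with 3 biological replicates in each of the 8 groups. There is no group of plants that never saw drought, so a higher level in CAM cannot be told apart from a fall on re-watering, nor the photosynthetic mode from the water supply. Libraries of MD and MN had been made for previous work, whereas those of ED and EN were made anew. Mode comparisons below are therefore made within 1 time, and levels are compared between times only within MD and MN or ED and EN. The average over times and the test of whether the mode difference changes with time use both sets. Comparing mode differences across the sets takes any effect of the set to be the same in both modes, which was not tested.

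The 24 libraries held 4310225 to 8756145 counts. Across genes, replicates of 1 group correlated at 0.951 to 0.987, except that reC3 EN replicate 1 correlated at 0.926 and 0.956 with the other two libraries of its group. Results that change without this library are given both ways. The summed level of 6 mesophyll markers was high in every library, from 4210 to 107000 CPM (counts scaled to the same total in every library), and of 5 root markers at most 3.30 CPM, with CASP1 at 0 in all libraries. The mesophyll sum was higher in CAM at ED, with 11700 to 16600 CPM against 4210 to 6840 CPM in reC3. At EN it was lower in CAM, with 60800 to 74000 CPM against 90100 to 107000 CPM. At MD and MN the modes overlapped. Markers of other leaf cells moved with the mode too. The 4 markers of dividing cells summed to 0.832 to 3.44 CPM in CAM and 7.48 to 117 CPM in reC3, with 1 of them at 0 in CAM EN, and all 4 were lower in CAM in the average over times. The 5 vascular markers summed to 205 to 642 CPM in CAM and 548 to 1430 CPM in reC3, with 4 of 5 lower in CAM, and the 4 epidermis markers to 245 to 562 and 365 to 870 CPM, with 4 of 4 lower. The part of these shifts in the P450 results was not tested, and in such whole-leaf samples fewer cells of a type and less RNA per cell cannot be told apart.

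P450 genes were more often lower than higher in drought CAM leaves than in re-watered leaves. In the average of the 4 times, 48 of the 96 tested members (50.0%) were lower in CAM and 15 (15.6%) higher at an adjusted p under 0.05, against 32.5% and 32.3% of all 14065 genes tested. The share that differed in either direction, 65.6%, was near the 64.8% of all genes. The median log2 fold change, CAM minus reC3, was -0.306 over the members and 0.014 over all genes. All fold changes, standard errors (SE) and adjusted p values are from edgeR's quasi-likelihood test on the counts of all libraries, adjusted by the Benjamini-Hochberg method over all genes tested. In sentences on the average, n is 12 libraries per mode, and in those on 1 time 3 libraries per group.

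The share of lower members was furthest above the background at ED, less so at MN and MD, and near it at EN. The share of higher members was below the background at all 4 times. At MD, 37 members were called (38.5% against 44.0% of all genes). Of these, 26 (27.1%) were lower in CAM against 21.3% of all genes, and 11 (11.5%) higher against 22.7%. At ED, 42 members, or 43.8% of those tested, were lower against 23.9% of all genes, and 9 higher against 21.5%. At MN, 28 were lower (background 20.5%) and 9 higher (background 18.1%), and at EN 46 were called (47.9% against 53.3% of all genes), of which 30 (31.2%) were lower (background 29.2%) and 16 higher (background 24.1%). Without reC3 EN replicate 1 the average gave 51 lower and 16 higher, and EN 30 lower and 14 higher. The higher counts at MD fell to 7 without CAM MD replicate 2, and those at MN to 4 without reC3 MN replicate 3. The lower counts fell to 23 at MD without CAM MD replicate 3, and to 20 at MN without CAM MN replicate 3. Whether the mode difference itself changed with time was tested by the interaction of mode and time, which was called in 51 of 96 members against 46.8% of all genes.

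**Figure D1:**
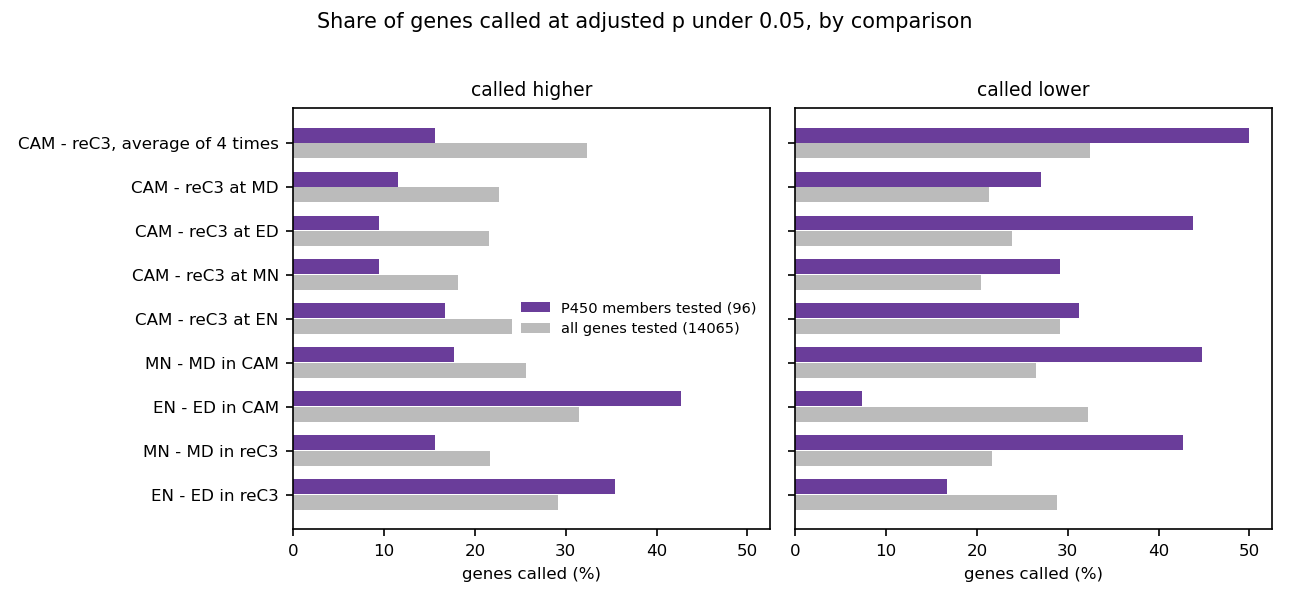
Share of the 96 tested P450 members (purple bars, x axis in percent) called higher or lower at an adjusted p under 0.05 in each comparison (y axis), beside the share of all 14065 genes tested (grey bars). In the average 50.0% of the members were lower and 15.6% higher in CAM, against 32.5% and 32.3% of all genes.

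The P450 genes together took a small share of all counts. At ED they held 0.181% ± 0.0265 (SD, n = 3) of the counts in CAM and 0.347% ± 0.0377 in reC3, and at MN 0.181% ± 0.0110 and 0.302% ± 0.0314. The replicates of the modes did not overlap at these times. At MD the shares were 0.234% ± 0.0443 in CAM and 0.290% ± 0.0857 in reC3 and at EN 0.186% ± 0.0132 and 0.199% ± 0.0196, and the replicates overlapped. With TMM-scaled totals, the scaling of the CPM values, the EN libraries did not overlap, with 0.200% to 0.239% in CAM and 0.268% to 0.293% in reC3. One gene, CYP87A2, described below, held 51310 counts over all libraries, and without it the shares were 0.174% in CAM and 0.230% in reC3 at ED, and 0.179% and 0.247% at MN, again with no overlap. At MD they were 0.205% and 0.250%, and at EN 0.182% and 0.179%, with overlap at both times.

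Members with a known role in Arabidopsis were grouped into 10 lists, which hold 61 members, 52 of them tested. In the average, the counts of each list below stand against 32.5% lower and 32.3% higher of all genes. Where a list is said below to have no member higher in the average, none was higher at an unadjusted p under 0.05 or by DESeq2 either. Some P450s of these pathways carry a description with other words and so lie outside the rule, and their values are given beside the lists they belong to.

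**Figure D2:**
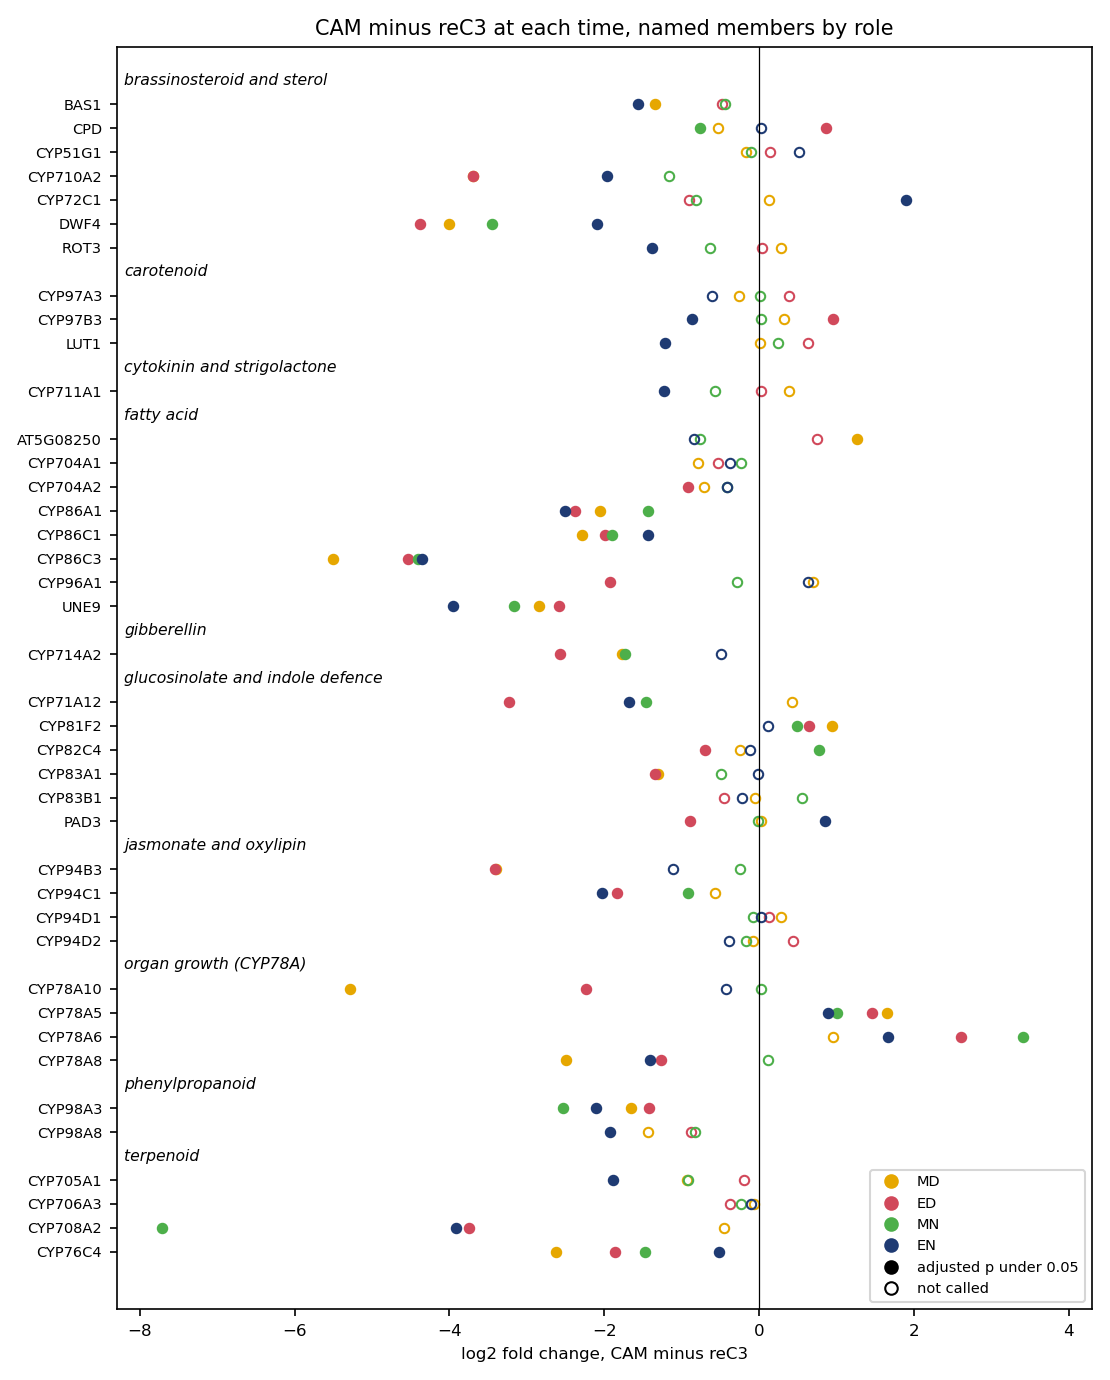
Fitted log2 fold change, CAM minus reC3 (x axis), for the named members on a role list, grouped by role (y axis). Points are drawn separately for MD, ED, MN and EN, with calls at an adjusted p under 0.05 marked. Most called differences lie left of 0, while those of CYP78A5 and CYP78A6 lie to the right. Some other members also have called points to the right, such as CYP81F2 at MD, ED and MN and CYP72C1 at EN. Fits of members with few counts, such as CYP86C3, depend on the prior count.

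Brassinosteroids are growth-promoting steroid hormones whose synthesis from plant sterols runs through a chain of P450 hydroxylases. Of 9 tested members of brassinosteroid and sterol metabolism, 5 were lower in CAM in the average and none was higher, with a median log2 fold change of -0.609 against 0.014 for all genes. The largest difference was that of DWF4 (AT3G50660), the rate-limiting hydroxylase of brassinosteroid synthesis. At MD it stood at 3.12, 4.70 and 2.32 CPM in CAM and 33.6, 51.7 and 78.6 CPM in reC3, and at ED at 4.67, 4.64 and 3.36 CPM and 70.8, 67.0 and 128 CPM. At MN it was at 2.80, 3.85 and 4.57 CPM in CAM and 39.5, 50.2 and 35.0 CPM in reC3, and at EN at 7.48, 5.40 and 5.68 CPM and 11.5, 44.5 and 23.6 CPM. Every CAM library was lower than every reC3 library of its time. The log2 fold change was -3.48 ± 0.213 (SE, adjusted p = 1.58e-11) in the average. By time it ran from -4.00 at MD and -4.38 at ED through -3.45 at MN to -2.10 at EN (adjusted p = 0.000272). Without reC3 EN replicate 2 the EN value was -1.51 (adjusted p = 0.00272).

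The last steps of the pathway, outside the rule, went the other way. The brassinosteroid-6-oxidases CYP85A1 (AT5G38970) and CYP85A2 (AT3G30180) were at a mean of 11.9 and 34.2 CPM in CAM and 4.94 and 17.0 CPM in reC3, with log2 fold changes of 0.99 ± 0.277 and 0.81 ± 0.249 (SE, adjusted p = 0.00392 and 0.00816). Over the times other than EN both missed the threshold (0.78 and 0.67, adjusted p = 0.0532 and 0.0614).

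CPD (AT5G05690), which acts in the same pathway, had a log2 difference of -0.11 ± 0.133 (SE, adjusted p = 0.504) in the average. It was higher in CAM at ED, by 0.86 (adjusted p = 0.0127), with 90.3, 93.2 and 78.9 CPM against 54.5, 43.2 and 47.2 CPM, groups that did not overlap. At MN it was lower in CAM, by -0.77 (adjusted p = 0.0274), with 66.9, 31.5 and 46.8 CPM against 97.2, 71.2 and 78.6 CPM, which did not overlap either. The call at ED was lost without reC3 ED replicate 2 (log2 0.78, adjusted p = 0.0521) and with library totals alone (0.63, adjusted p = 0.0527). The MN call was lost without CAM MN replicate 2 or 3 or reC3 MN replicate 1 or 3 (adjusted p up to 0.166). ROT3 (AT4G36380), a further hydroxylase of the pathway, passed the threshold at -0.43 in the average (adjusted p = 0.0429), but in 10 of 24 fits when each library was left out in turn. At EN it was lower in CAM, with 3.29, 1.99 and 2.84 CPM against 3.57, 7.98 and 9.49 CPM and a log2 fold change of -1.38 (adjusted p = 0.00304), groups that did not overlap.

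The P450s that inactivate brassinosteroids moved in different ways. BAS1 (AT2G26710), which hydroxylates the active hormone and so ends its action, was lower in CAM in the average, by -0.96 ± 0.177 on the log2 scale (SE, adjusted p = 6.88e-05). Its difference passed the threshold at MD (-1.35, adjusted p = 0.00549) and at EN (-1.57, adjusted p = 0.000886), and the EN value was -2.32 without CAM EN replicate 1. CYP72C1 (AT1G17060), which also lowers the hormone level, was higher in CAM at EN alone among the 4 times, with 51.0, 52.8 and 76.1 CPM in CAM and 3.38, 29.6 and 14.8 CPM in reC3. The CAM libraries lay above all reC3 libraries, which differed widely among themselves. On the log2 scale the difference was 1.90 ± 0.493 (SE, adjusted p = 0.00306), and 2.69 without reC3 EN replicate 2, and the interaction of mode and time had an adjusted p of 0.00866.

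Among the sterol enzymes, CYP51G1 (AT1G11680), a sterol demethylase early in sterol synthesis, had a log2 difference of 0.09 ± 0.151 (SE, adjusted p = 0.610) in the average. Without reC3 EN replicate 1 it was called higher, at 0.26 (adjusted p = 0.0408). CYP710A2 (AT2G34490), a desaturase of the sterol side chain, was lower in CAM, with 0.195, 0.940 and 0 CPM against 4.54, 7.49 and 3.95 CPM at MD and 0.505, 0.594 and 0.671 CPM against 8.18, 7.76 and 7.68 CPM at ED. No CAM library reached a reC3 library at these times. Its log2 fold change was -2.63 ± 0.249 (SE, adjusted p = 5.19e-09) in the average. The MD value of -3.69 was -5.63 without CAM MD replicate 2. Its close relative CYP710A3 (AT2G28850) held 28 counts in all CAM libraries and 240 in all reC3 libraries, an 8.84-fold lower share in CAM (95% counting interval 5.96 to 13.6). Such intervals cover counting error only.

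Gibberellins are growth hormones that drive cell elongation. Both tested members of gibberellin metabolism were lower in CAM in the average, with a median log2 fold change of -1.5, while the kaurene oxidase CYP701A3 (AT5G25900), outside the rule, was at 0.14 (adjusted p = 0.413). CYP714A2 (AT5G24900), which modifies gibberellins, stood at 2.02, 1.31 and 2.95 CPM in CAM and 9.74, 12.8 and 14.9 CPM in reC3 at ED. The groups did not overlap at ED, and the log2 fold change was -2.57 at ED and -1.64 ± 0.173 (SE, adjusted p = 2.77e-08) in the average. CYP88A3 (AT1G05160), an oxidase of gibberellin synthesis, was close to the detection limit, with 28 counts in CAM and 74 in reC3 over 12 libraries each, and a log2 fold change of -1.35 (adjusted p = 0.00476).

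CYP711A1 (AT2G26170), also called MAX1, oxidises carlactone in the synthesis of strigolactones, which repress shoot branching. It was lower in CAM at EN, with 11.8, 9.39 and 9.84 CPM against 15.2, 31.4 and 26.1 CPM and a log2 difference of -1.23 ± 0.279 (SE, adjusted p = 0.000848). The reC3 libraries were all above the CAM libraries there, while at MD the libraries overlapped, with 10.9, 14.7 and 9.43 CPM in CAM and 7.44, 9.14 and 10.2 CPM in reC3. Its average of -0.35 (adjusted p = 0.0394) passed the threshold in 11 of 24 leave-one-out fits, and was -0.05 (adjusted p = 0.803) over the times other than EN.

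Jasmonate is a wound and stress hormone whose active form, the isoleucine conjugate, is broken down by P450s of the CYP94 family. Of 5 tested members of jasmonate and oxylipin metabolism, 3 were lower in CAM in the average and none higher, with a median log2 fold change of -1.06. Allene oxide synthase CYP74A (AT5G42650), a jasmonate synthesis enzyme outside the rule, was lower too, at -0.78 ± 0.170 (SE, adjusted p = 0.000429). The hydroperoxide lyase CYP74B2 (AT4G15440), also outside the rule, was at 0.01 ± 0.212 (SE, adjusted p = 0.984), with means of 112 CPM in CAM and 69.5 CPM in reC3. CYP94B3 (AT3G48520), which hydroxylates the conjugate, stood at 0.390, 1.41 and 0.662 CPM in CAM and 5.99, 12.1 and 9.06 CPM in reC3 at MD. The MN libraries overlapped, with 4.13, 4.47 and 1.99 CPM in CAM and 3.47, 5.11 and 3.85 CPM in reC3. In log2 terms CAM minus reC3 came to -3.40 at MD and -3.41 at ED, against -0.25 at MN, which did not pass the threshold, and the interaction had an adjusted p of 0.00618. Leaving out CAM MD replicate 2 moved the MD value to -4.04, and leaving out CAM ED replicate 2 moved the ED value to -2.80. At EN its value of -1.11 missed the threshold and was -1.53 (adjusted p = 0.0175) without reC3 EN replicate 1.

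CYP94C1 (AT2G27690), which oxidises the conjugate further, was lower in CAM by -1.34 ± 0.134 on the log2 scale (SE, adjusted p = 1.22e-08) in the average. At EN it stood at 2.84, 4.41 and 3.22 CPM in CAM and 13.3, 13.6 and 16.1 CPM in reC3. These groups lay far apart relative to their spread, with a log2 fold change of -2.03 (adjusted p = 1.48e-06). CYP94D1 and CYP94D2, relatives in the same family, were at 0.09 and -0.05 in the average and passed the threshold at none of the 4 times (lowest adjusted p 0.279 for CYP94D2 and 0.450 for CYP94D1).

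CYP98A3 (AT2G40890) adds a hydroxyl group to the phenylpropanoid precursors of lignin. All 3 tested members of phenylpropanoid metabolism were lower in CAM in the average, and none was higher, with a median log2 fold change of -1.93. Outside the rule, cinnamate hydroxylase CYP73A5 (AT2G30490), the entry step, was at a mean of 39.4 CPM in CAM and 203 CPM in reC3, a log2 difference of -2.38 ± 0.151 (SE, adjusted p = 1.27e-11), and ferulate hydroxylase CYP84A1 (AT4G36220) was lower by -1.21. CYP98A3 stood at 11.3, 13.6 and 16.1 CPM in CAM and 59.0, 42.2 and 28.6 CPM in reC3 at MD, and at 7.07, 7.37 and 8.86 CPM and 21.9, 20.7 and 19.8 CPM at ED. At MN it was at 3.2, 3.73 and 7.65 CPM in CAM and 26.7, 25.8 and 34.1 CPM in reC3, and at EN at 33.9, 29.0 and 33.3 CPM and 258, 54.2 and 104 CPM. The CAM libraries were below the reC3 libraries at every time. The fitted difference on the log2 scale was -1.93 ± 0.207 (SE, adjusted p = 8.55e-08) in the average. At EN it was -2.11, and -1.30 (adjusted p = 0.000677) without reC3 EN replicate 1. CYP98A8 (AT1G74540), which hydroxylates phenolic conjugates of the pollen wall in Arabidopsis, was lower in CAM by -1.27 in the average (adjusted p = 0.00146) and by -1.93 at EN, or -1.23 without reC3 EN replicate 1.

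**Figure D3:**
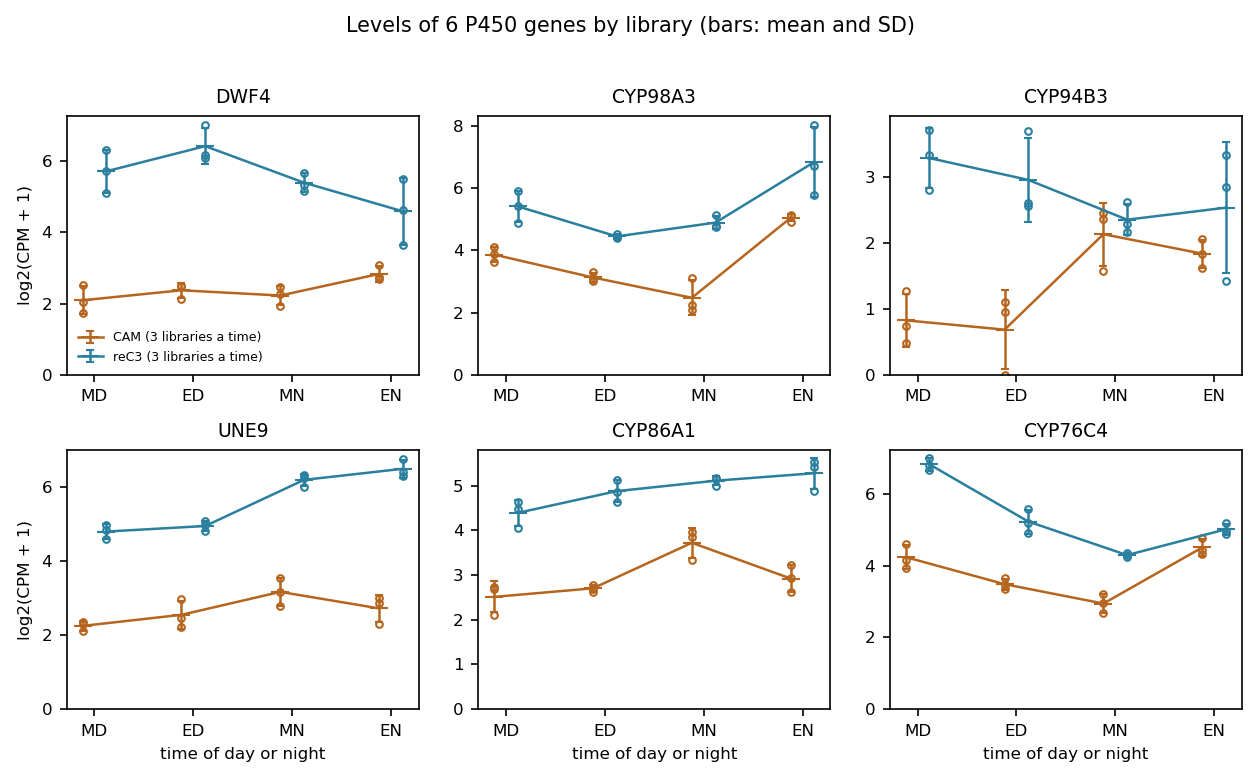
Level of DWF4, CYP98A3, CYP94B3, UNE9, CYP86A1 and CYP76C4 as log2(CPM + 1) (y axis) at each time (x axis). Circles are libraries and bars the mean ± SD of 3. Lines join the means, although MD and MN came from another library set than ED and EN. For DWF4 the CAM libraries lie below the reC3 libraries at all 4 times, at EN 5.40 to 7.48 against 11.5 to 44.5 CPM.

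P450s of fatty acid oxidation make hydroxy fatty acids, the building blocks of cutin and suberin. Of 11 tested members outside the cutin and wax enzymes left out above, 6 were lower in CAM in the average and 1 was higher, with a median log2 fold change of -0.488. The higher one, CYP704B1 (AT1G69500, 0.53, adjusted p = 0.0332), had 233 counts in CAM and 148 in reC3. It was higher in CAM at MD, by 2.05 (adjusted p = 0.00115), but lower at ED, by -1.68 (adjusted p = 0.00375). Its interaction of mode and time had an adjusted p of 0.000492. UNE9 (AT3G10560), a member of the CYP77A family that includes epoxidases and hydroxylases of fatty acids, had the smallest p of the list. It stood at 3.90, 3.29 and 4.14 CPM in CAM and 30.5, 27.7 and 23.2 CPM in reC3 at MD, and at 3.66, 4.52 and 6.84 CPM and 30.5, 32.9 and 27 CPM at ED. At MN it was at 8, 10.7 and 5.96 CPM in CAM and 75.6, 64.0 and 79.6 CPM in reC3, and at EN at 6.28, 6.97 and 3.98 CPM and 109, 78.3 and 84.9 CPM. The modes were separated at all 4 times with little scatter among replicates. The log2 fold change was -3.14 ± 0.117 (SE, adjusted p = 4.58e-15) in the average and ran from -2.59 at ED to -3.96 at EN.

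CYP86A1 (AT5G58860), which makes the hydroxy acids of root suberin in Arabidopsis, was also lower at each time. At EN it stood at 6.58, 8.39 and 5.11 CPM in CAM and 28.6, 45.4 and 41.6 CPM in reC3, and at MN, where the groups were closest, at 14.7, 13.4 and 9.14 CPM and 30.9, 34.7 and 35.2 CPM. No library of one mode reached the range of the other. On the log2 scale the difference was -2.10 ± 0.116 (SE, adjusted p = 9.82e-13) in the average. Root markers were near 0 in all libraries, as given above.

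Within the CYP86C family, CYP86C3 (AT1G13140) had 11 counts in all CAM libraries and 391 in all reC3 libraries, a 36.6-fold lower share in CAM (95% counting interval 20.3 to 74.0). Its reC3 level was 12.7, 8.39 and 12.4 CPM at MD and 6.02, 0.354 and 1.33 CPM at EN, so the EN difference rested on replicate 1. Without that library the EN call was lost (adjusted p = 0.0538). CYP86C1 (AT1G24540) was lower in CAM by -1.91 ± 0.246 (SE, adjusted p = 6.58e-07) in the average, with 3.31, 3.60 and 2.98 CPM against 20.7, 11.5 and 16.7 CPM at MD. The MD groups lay apart. At EN its log2 fold change was -1.44 (adjusted p = 0.0273), and the call was lost without CAM EN replicate 2 (-1.12, adjusted p = 0.116) or reC3 EN replicate 1 (-0.42, adjusted p = 0.522).

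Other members of the list differed at single times. AT5G08250, which the table does not name, was higher in CAM at MD, with 21.8, 8.62 and 28.1 CPM against 9.25, 8.24 and 6.89 CPM. CAM replicate 2 fell inside the reC3 range. In log2 terms CAM minus reC3 came to 1.27 (adjusted p = 0.00635), and the call was lost without CAM MD replicate 3 (0.90, adjusted p = 0.0620). CYP96A1 (AT2G23180) was lower in CAM at ED, by -1.92 (adjusted p = 0.00322), with 0.505, 0.357 and 1.88 CPM against 3.01, 3.13 and 4.25 CPM. The ED groups did not overlap, and the value was -2.94 without CAM ED replicate 3.

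Terpenoid P450s oxidise monoterpenols, triterpenes and related products. Of 6 tested members, 5 were lower in CAM in the average and none higher, with a median log2 fold change of -0.875. CYP76C4 (AT2G45550), of a family that oxidises monoterpenols, stood at 17.0, 23.3 and 14.4 CPM in CAM and 110, 128 and 101 CPM in reC3 at MD. The difference narrowed to 20.5, 18.9 and 26.5 CPM against 35.3, 30.3 and 28.8 CPM at EN, where the groups still did not overlap. The fitted difference on the log2 scale was -1.62 ± 0.0995 (SE, adjusted p = 4.87e-12) in the average and went from -2.63 at MD through -1.86 at ED and -1.47 at MN to -0.52 at EN (adjusted p = 0.0270), with an interaction at an adjusted p of 3.47e-05. The EN call was lost without CAM EN replicate 1 or 2 or reC3 EN replicate 1 (adjusted p = 0.0846, 0.108 and 0.0918), and with library totals alone (-0.22, adjusted p = 0.350).

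CYP76C5 (AT1G33730), of the same family, also differed most at MD. It stood at 11.5, 13.6 and 12.2 CPM in CAM and 60.6, 60.5 and 46.1 CPM in reC3 at MD, but at 10.5, 16.1 and 10.9 CPM and 14.9, 14 and 14.5 CPM at MN. The groups were apart at MD and overlapped at MN. Its log2 fold change was -2.15 at MD and -1.88 at ED (adjusted p = 1.13e-06). At MN it was -0.21 and at EN -0.35 (adjusted p = 0.127), with an interaction at an adjusted p of 1.21e-05. CYP705A6 (AT2G05180), of a family with triterpene oxidases, stood at 0.585, 0.157 and 0.166 CPM in CAM and 5.99, 6.74 and 6.51 CPM in reC3 at MD. The reC3 libraries agreed closely and the CAM libraries were near 0, and the log2 fold change was -4.40 (adjusted p = 3.75e-07), or -5.17 without CAM MD replicate 1. At ED the same gene differed by -3.19 (adjusted p = 1.42e-05), and at MN by -0.59 (adjusted p = 0.377). CYP705A1 (AT4G15330), which cleaves the triterpene arabidiol, was lower in CAM by -0.98 in the average (adjusted p = 0.00176), and by -0.68 (adjusted p = 0.0505) over the times other than EN.

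CYP87A2 (AT1G12740) had the most counts of all members, and it varied more between libraries than most. At MD it stood at 325, 593 and 91.0 CPM in CAM and 104, 261 and 830 CPM in reC3, ranges that overlapped almost entirely. At ED it was at 28.9, 7.25 and 133 CPM in CAM and 660, 712 and 1120 CPM in reC3, and at MN at 6.53, 17.1 and 6.36 CPM and 341, 624 and 453 CPM. There the modes were far apart. At EN it was at 43.2, 51.8 and 53.8 CPM in CAM and 59.4, 482 and 230 CPM in reC3, with reC3 replicate 1 close to the CAM range. The log2 fold change was -0.25 at MD, -3.88 at ED (adjusted p = 0.00277) and -5.56 at MN (adjusted p = 0.000354), with -3.02 ± 0.466 (SE, adjusted p = 1.25e-05) in the average. The ED value was -5.52 without CAM ED replicate 3 and the MN value -6.16 without CAM MN replicate 2. At EN its value of -2.37 (adjusted p = 0.0341) lost the threshold without any 1 of the CAM EN libraries (adjusted p 0.0904, 0.0734 and 0.0746) and without reC3 EN replicate 2 (-1.55, adjusted p = 0.185).

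The 3 members of the CYP708A family followed the same course over the libraries. CYP708A2 (AT5G48000), a thalianol hydroxylase of a root triterpene cluster in Arabidopsis per the table, stood at 11.1, 29.6 and 3.14 CPM in CAM and 3.99, 9.89 and 45.7 CPM in reC3 at MD. At MN it was at 0.133, 0.248 and 0 CPM in CAM and 19.7, 36.3 and 28.8 CPM in reC3. The modes overlapped at MD and were fully apart at MN, where 3 counts in CAM stood against 663 in reC3, a 243-fold lower share in CAM (95% counting interval 82.7 to 1180). Over all libraries CYP708A2 was 6.06-fold lower in pooled counts (5.39 to 6.83), an interval that leaves out the wide spread between libraries.

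CYP708A1 (AT1G55940) had 1 count in CAM and 157 in reC3 at MN, a 173-fold lower share (95% counting interval 30.5 to 6860). Over all libraries it had 80 and 593 counts, a 7.64-fold lower share in pooled counts (6.04 to 9.78). The fitted log2 fold change in the average, which weights the 4 times equally, was larger, at -3.83 ± 0.584 (SE, adjusted p = 1e-05). CYP708A3 (AT1G78490) stood at 0.133, 0.869 and 0.298 CPM in CAM and 17.6, 31.8 and 21.2 CPM in reC3 at MN, against 13.6, 23.7 and 2.81 CPM and 5.62, 14.5 and 40.1 CPM at MD. Again the libraries overlapped at MD and were apart at MN. Its log2 fold change was -0.61 at MD, then -4.49 at ED, -5.72 at MN and finally -3.10 at EN, with -3.48 in the average (adjusted p = 1.2e-06). The ED value was -5.92 without CAM ED replicate 3, the MN value -6.56 without CAM MN replicate 2, and the EN call was lost without reC3 EN replicate 2 (-2.34, adjusted p = 0.0709).

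**Figure D4:**
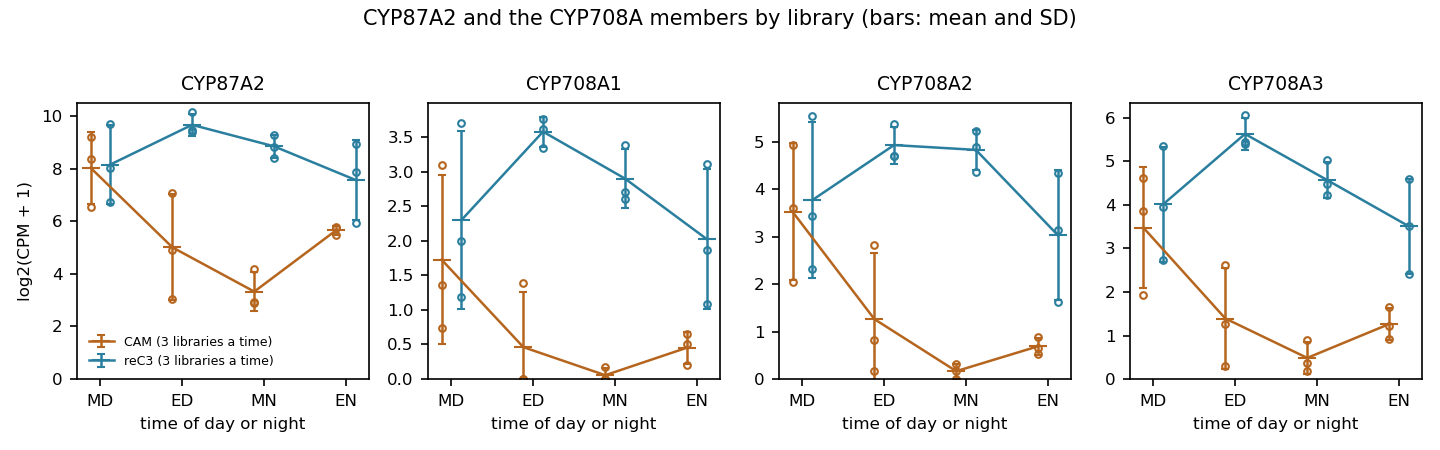
Level of CYP87A2, CYP708A1, CYP708A2 and CYP708A3 as log2(CPM + 1) (y axis) at each time (x axis). Circles are libraries, bars the mean ± SD of 3, and lines join the means of 2 library sets (MD and MN, ED and EN). The modes overlap at MD and are apart at MN, where CYP87A2 stood at 6.36 to 17.1 CPM in CAM and 341 to 624 CPM in reC3.

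The resemblance of these genes was close over the 24 libraries. CYP87A2 and CYP708A3 correlated at a Pearson r of 0.975, and CYP708A3 and CYP708A2 at 0.982, on the log2(CPM + 1) scale. Other pairs that ran together were CYP704A1 with CYP704A2 (0.992), CYP706A4 with CYP706A1 (0.981), AT2G12190 with CYP89A3 (0.981), UNE9 with CYP86A1 (0.951) and DWF4 with CYP714A2 (0.914). These values describe libraries that share groups, times and library sets. Reads of 1 Talinum transcript could also be divided among several Arabidopsis genes of a family, which was not tested, so members of 1 family may not be separate genes of Talinum.

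The CYP78A family controls organ and seed size in Arabidopsis, where CYP78A5 keeps cells of growing organs dividing and CYP78A6 promotes seed growth. Of 5 tested members 3 were higher and 2 lower in CAM, with a median log2 fold change of 1.25. CYP78A5 (AT1G13710) stood at 26.3, 27.6 and 25.3 CPM in CAM and 8.71, 6.89 and 9.57 CPM in reC3 at MD, and at 26.5, 22.9 and 30.5 CPM and 9.74, 12.4 and 6.54 CPM at ED. At MN it was at 34.4, 53.2 and 40.1 CPM in CAM and 23.3, 21.4 and 19.1 CPM in reC3, and at EN at 24.1, 25.3 and 27.3 CPM and 14.1, 12.9 and 14.1 CPM. Every CAM library was above every reC3 library of its time. On the log2 scale the difference was 1.25 ± 0.0949 (SE, adjusted p = 1.52e-10) in the average, and 1.65, 1.46, 1 and 0.89 at MD, ED, MN and EN.

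CYP78A6 (AT2G46660) was higher in CAM by 2.16 ± 0.200 on the log2 scale (SE, adjusted p = 3.95e-09). At MN it stood at 38.0, 18.5 and 24.9 CPM in CAM and 2.80, 1.5 and 3.34 CPM in reC3, while at MD it was at 3.70, 5.64 and 2.98 CPM and 2.00, 3.15 and 1.28 CPM. The modes were wide apart at MN and overlapped at MD. In log2 terms CAM minus reC3 came to 3.41 at MN and 0.96 at MD (adjusted p = 0.0793), which was called, at 1.37, without reC3 MD replicate 2. CYP78A7 (AT5G09970) was rare, with 89 counts in CAM and 13 in reC3, a 6.64-fold higher share in CAM (95% counting interval 3.69 to 13.0).

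CYP78A10 (AT1G74110) and CYP78A8 (AT1G01190) were lower in CAM at MD and ED. CYP78A10 stood at 0.390, 1.1 and 0.662 CPM in CAM and 26.3, 34 and 27.7 CPM in reC3 at MD, and at 4.53, 4.10 and 2.39 CPM and 4.14, 3.49 and 3.08 CPM at MN. The modes were far apart at MD and overlapped at MN. The fitted difference on the log2 scale was -5.28 ± 0.299 (SE, adjusted p = 4.48e-11) at MD and -2.24 at ED but 0.02 at MN and -0.43 at EN, with an interaction at an adjusted p of 4.03e-08. From MD to MN it rose by 2.27 on the log2 scale in CAM and changed by -3.03 in reC3. CYP78A8 was at 7.60, 13.8 and 6.79 CPM in CAM and 51.3, 68.0 and 41.2 CPM in reC3 at MD, and at 24.3, 14.4 and 20.0 CPM and 20.4, 16.7 and 17.1 CPM at MN. It too was apart at MD and overlapped at MN, with log2 fold changes of -2.50 and 0.11. CYP78A8 was also called lower at EN, by -1.41 (adjusted p = 0.000603), with 10.8, 15.5 and 17.0 CPM in CAM and 53.8, 24.8 and 36.3 CPM in reC3, and at ED it was lower by -1.27 (adjusted p = 0.00346).

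**Figure D5:**
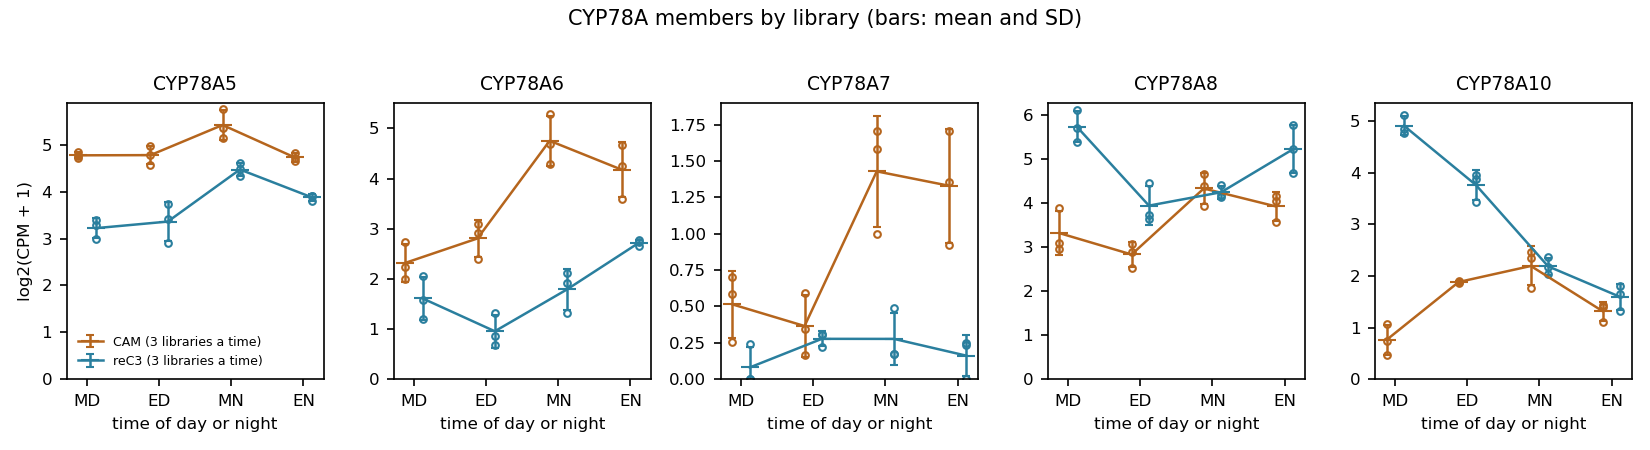
Level of the CYP78A members as log2(CPM + 1) (y axis) at each time (x axis), with circles for libraries, bars for the mean ± SD of 3, and lines that join the means of 2 library sets (MD and MN, ED and EN). CYP78A5 is higher in CAM at all 4 times, while CYP78A10 is at 0.390 to 1.1 CPM in CAM and 26.3 to 34 CPM in reC3 at MD and overlaps at MN.

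The P450s of the carotenoid pathway, CYP97A3 (AT1G31800) and LUT1 (AT3G53130), hydroxylate the rings of carotenes on the way to lutein. None of the 3 tested members of this list passed the threshold in the average by edgeR's test (median log2 fold change -0.079), and none did at an unadjusted p under 0.05 or by DESeq2. LUT1 differed at EN, with 54.1, 73.8 and 47.7 CPM in CAM and 228, 69.7 and 109 CPM in reC3. The groups overlapped and reC3 replicate 1 was the highest. The log2 fold change at EN was -1.21 (adjusted p = 0.00265), and -0.61 (adjusted p = 0.0508) without that library. CYP97B3 (AT4G15110), a relative of these hydroxylases, was higher in CAM at ED, with 180, 174 and 184 CPM against 117, 74.9 and 86.6 CPM, and lower at EN, with 70.7, 72.1 and 76.1 CPM against 178, 99.6 and 122 CPM. Neither pair of groups overlapped. The log2 fold changes were 0.95 (adjusted p = 0.000308) and -0.87 (adjusted p = 0.000562), and the interaction had an adjusted p of 0.000134.

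The genes of indole and glucosinolate defence chemistry are known from Arabidopsis and its relatives, and what their Talinum counterparts make is not known here. Of 6 tested members, 1 was higher and 2 were lower in CAM in the average, with a median log2 fold change of -0.0594. The lower count is near the 32.5% of all genes. CYP71A12 (AT2G30750), which acts on indole acetaldoxime, stood at 17.5, 20.5 and 15.7 CPM in CAM and 14, 13.0 and 13.1 CPM in reC3 at MD, and at 0.632, 1.31 and 0.134 CPM and 4.93, 7.18 and 8.50 CPM at ED. The modes were close at MD and far apart at ED. On the log2 scale CAM minus reC3 was 0.42 at MD (adjusted p = 0.299), -3.23 at ED (adjusted p = 9.04e-06) and -1.49 ± 0.233 (SE, adjusted p = 8.26e-06) in the average. The ED value was -4.07 without CAM ED replicate 2. At MN and EN it was lower by -1.46 and -1.68 (adjusted p = 0.0332 and 0.00776), of which the MN call was lost without CAM MN replicate 2 or 3 or reC3 MN replicate 1 or 3 (adjusted p up to 0.130) and the EN call without reC3 EN replicate 2 (0.0594).

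PAD3 (AT3G26830), which catalyses the last step of camalexin synthesis, was near 0 in the average (log2 0.00 ± 0.107, SE, adjusted p = 0.983) but differed in opposite directions within the new library set. At ED it was at 9.73, 9.15 and 9.53 CPM in CAM and 15.5, 18.8 and 18.6 CPM in reC3, and at EN at 22.7, 14.8 and 25.4 CPM and 7.71, 13.5 and 13.3 CPM. The groups did not overlap at either time and changed order between them. The log2 fold changes were -0.89 (adjusted p = 0.00238) and 0.85 (adjusted p = 0.00295), with an interaction at an adjusted p of 0.00128. CYP81F2 (AT5G57220), which hydroxylates indole glucosinolates, was higher in CAM by 0.55 ± 0.0977 (SE, adjusted p = 4.07e-05), and CYP83A1 (AT4G13770), of aliphatic glucosinolate synthesis, was lower by -0.79 (adjusted p = 0.00154).

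Among members on no role list, several of the CYP81 family were higher in CAM. CYP81D7 (AT2G23190) was at 11.5, 13.6 and 13.9 CPM in CAM and 3.08, 3.15 and 4.59 CPM in reC3 at MD, with a log2 difference of 1.13 ± 0.125 (SE, adjusted p = 5.92e-08) in the average. CYP81H1 (AT4G37310) was at 45.8, 50.3 and 33.9 CPM in CAM and 8.35, 8.69 and 7.14 CPM in reC3 at MD, and at 8.82, 12.5 and 10.4 CPM and 8.08, 10.5 and 7.82 CPM at EN. Both genes were apart at MD, and CYP81H1 overlapped at EN. It was higher in CAM by 2.43 on the log2 scale at MD (adjusted p = 4.01e-07) and at EN the difference was 0.27 (adjusted p = 0.451), with an interaction at an adjusted p of 0.000327. CYP81D1 (AT5G36220) was higher by 0.77 (adjusted p = 3.88e-05) and AT3G28740 by 0.43 in the average. CYP81G1 (AT5G67310), of the same family, did not follow. Its log2 fold changes were -0.47, -0.09, 0.01 and -0.41 at MD, ED, MN and EN, none of which passed the threshold (lowest adjusted p 0.201).

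The 16 members higher in CAM at EN, given above, were 16.7% of those tested, below the 24.1% of all genes. Of them, CYP709B3 (AT4G27710) stood at 32.7, 33.4 and 51.9 CPM in CAM and 0.940, 20.7 and 9.82 CPM in reC3, and at ED at 0.505, 0.238 and 2.95 CPM and 2.29, 4.05 and 4.25 CPM. The CAM libraries were above all reC3 libraries at EN, and at ED the groups overlapped. The log2 fold change at EN was 1.89 (adjusted p = 0.00623), and 2.83 without reC3 EN replicate 2. CYP71B25 (AT3G26270) was at 63.9, 51.0 and 87.3 CPM in CAM and 16.2, 31.7 and 23.3 CPM in reC3 at EN, but at 55.8, 56.4 and 44.2 CPM and 84.7, 89.3 and 69.1 CPM at MD. The groups did not overlap at either time and were in opposite order, with log2 fold changes of 1.5 (adjusted p = 1.21e-05) and -0.64 (adjusted p = 0.0218). The MD call was lost without CAM MD replicate 3 (-0.53) or reC3 MD replicate 1 (-0.60) or 2 (-0.56), while the interaction had an adjusted p of 9.19e-05.

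Between midday and midnight more members fell than rose in both modes. In CAM 43 members were lower at MN than at MD and 17 higher, against 26.5% and 25.6% of all genes. In reC3 41 were lower and 15 higher, against 21.7% of all genes in each direction. All 6 tested members of indole and glucosinolate chemistry were lower at MN in CAM and 5 of 6 in reC3. CYP83B1 (AT4G31500), which acts at the branch to indole glucosinolates, was at 6.82, 9.71 and 5.63 CPM at MD and 1.2, 0.621 and 1.19 CPM at MN in CAM, a log2 change of -2.85 ± 0.347 (SE, adjusted p = 5.04e-07), and changed by -3.45 in reC3. CYP71A12 changed by -4.63 in CAM and by -2.75 in reC3. CYP82C4 (AT4G31940), linked to coumarins and iron supply in Arabidopsis, changed by -1.75 and -2.77, and CYP89A9 (AT3G03470), which oxidises chlorophyll breakdown products, by -2.75 and -1.55. These genes fell in each mode. CYP87A2 fell from MD to MN by -5.07 in CAM (-4.38 without CAM MD replicate 2), against 0.25 in reC3, which missed the threshold.

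From dusk to dawn the direction was the opposite in CAM. There 48 members were called (50.0% against 63.7% of all genes), 41 higher at EN than at ED and 7 lower, against 31.5% and 32.2% of all genes, with a median log2 change of 0.549 against -0.014 for all genes. In reC3 50 were called (52.1% against 57.9%), 34 higher and 16 lower, against 29.1% and 28.8%, and without reC3 EN replicate 1 29 and 14. Scaling by library totals alone shifts the median of all genes in this comparison by -0.447 in CAM and -0.966 in reC3, and then gave 30 higher and 17 lower in CAM but 13 higher and 49 lower in reC3, so the surplus in reC3 depends on the scaling. The lower count in CAM was 4 without CAM EN replicate 3.

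Some members rose towards dawn in both modes. CYP704A1 (AT2G44890) was at 9.6, 7.84 and 9.93 CPM at ED and 60.4, 82.6 and 95.8 CPM at EN in CAM, and at 14.9, 10.8 and 13.9 CPM and 123, 77.4 and 111 CPM in reC3. No library at ED reached a library at EN. The log2 change was 3.12 ± 0.360 (SE, adjusted p = 1.86e-07) in CAM and 2.98 in reC3, the latter 1.99 with library totals alone. CYP704A2 (AT2G45510) rose by 3.35 and 2.85 (1.87 with library totals alone). CYP704A1 and CYP704A2 also rose from MD to MN, by 1.92 and 1.57 in CAM and 1.37 and 1.28 in reC3. CYP704B1, of the same family, rose from ED to EN by 2.52 in CAM but changed by -0.09 in reC3 (adjusted p = 0.868). The CYP704 family oxidises fatty acids. CYP71B32 (AT3G53305) rose from ED to EN by 3.29 in CAM (4.01 without CAM ED replicate 1) and by 3.45 in reC3 (2.50 with library totals alone). CYP98A3 rose by 2.05 in CAM and by 2.73 in reC3, or 1.93 without reC3 EN replicate 1. CYP709B3 rose by 5.02 in CAM (6.67 without CAM ED replicate 3), and in reC3 by 1.59 (adjusted p = 0.0343), a call that was lost with library totals alone (0.69, adjusted p = 0.379).

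Genes for the proteins that hand electrons to P450s were mostly lower in CAM. Of 6 tested reductase and cytochrome b5 genes, 5 were lower in the average and none higher, against 32.5% and 32.3% of all genes. The cytochrome b5 gene CB5-D was at a mean of 11.8 CPM in CAM and 30.9 CPM in reC3, with a log2 difference of -1.38 ± 0.0994 (SE, adjusted p = 6.12e-11). The cytochrome b5 genes CB5-B and CB5-E were lower by -0.64 and -0.58. Both reductases are given for their role, chosen after their values were seen, with ATR2 lower by -0.36 (adjusted p = 0.000457) and ATR1 at -0.12 (adjusted p = 0.126).

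The other genes of the same pathways were called in both directions, and their counts stand against 32.5% lower and 32.3% higher of all genes. The higher counts of the brassinosteroid and jasmonate lists are near that background. Of 11 phenylpropanoid and lignin genes 7 were lower in CAM and 2 higher, among them CCOAOMT1, a methyltransferase of lignin precursors, at -3.39, CCR1, a reductase of the same branch, at -2.24, and the coenzyme A ligase 4CL1 at -1.76. Of 10 gibberellin genes 5 were lower and 2 higher, with the synthesis oxidases GA20OX1 at -2.59, from a mean of 0.827 CPM in CAM and 4.33 CPM in reC3, and GA20OX3 at -3.28, and the growth repressor GAI at -0.52. Of 10 brassinosteroid genes 5 were lower, such as the sterol reductase DWF1 at -1.57, and 3 higher, such as the sterol desaturase DWF7 at 1.23 and the sterol reductase FK at 0.57. Of 9 jasmonate genes 3 were higher, such as the receptor COI1 at 1.02 and the allene oxide cyclase AOC1 at 0.33, and 1 was lower, the synthesis reductase OPR3 at -0.57. The AOC1 call was lost in the average without EN (0.19, adjusted p = 0.0968). Of 9 carotenoid genes 5 were lower, such as phytoene synthase PSY at -1.09 and zeaxanthin epoxidase ZEP at -0.93, and 1 higher, the isomerase CRTISO at 1.03. Of 6 strigolactone and cytokinin genes 4 were lower, such as the cytokinin synthesis gene IPT3 at -2.37 and the carotenoid cleavage gene CCD7 at -2.56, the latter from means of 0.232 CPM in CAM and 0.980 CPM in reC3, and 1 higher, the strigolactone signalling gene MAX2 at 1.22. Unless said otherwise, the values in this paragraph are log2 fold changes of the average with an adjusted p under 0.05.

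Several members with well-known roles had too few counts to be tested. CYP79A2, CYP79B3 and CYP79F2, which start glucosinolate synthesis, had 0, 3 and 6 counts over all libraries, and the brassinosteroid hydroxylase CYP724A1 had 3. CYP735A2, which makes trans-zeatin cytokinins, had 25. Whether they differed between modes was therefore not tested.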

How the data were processed

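RNA sequencing was carried out on 24 leaf libraries, and the deposited table gives whole-number counts per Arabidopsis gene and library as made by the authors, who used CASAVA 1.8.2 and TAIR 10 per the submitters' processing notes. The aligner, like the counting method, was not given in the sources used here. Per the labels' protocols, the library kit does not mark strand. The table holds 40 further columns of values, none of which entered the calculations. Members carry the names in their descriptions in the table, except CYP89A9, which the table describes only as a member of the CYP89A family. Partner and pathway genes and P450s outside the rule carry names in use for Arabidopsis.

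The counts were fitted for all genes and all libraries with edgeR 4.0.16 (quasi-likelihood test, TMM scaling, robust dispersion, filterByExpr, 1 term per group) in R 4.3.3, and p values were adjusted over the 14065 genes kept. CPM values use TMM-scaled totals, and shares of counts use library totals. TMM factors ran from 0.608 to 1.43. Library totals of 4310225 to 8756145 counts make genes under about 1 CPM imprecise. No pair of replicates agreed within sampling noise (smallest chi-square per degree of freedom 3.91). The labels call the replicates biological. Ratios of members with few counts are pooled counts with exact 95% intervals. DESeq2 1.42.0, another scaling, library totals alone, no filter, a stricter threshold, a replicate block, only the compared libraries, the average without EN and leaving out each library were tried. The fit was tested on simulated data.

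Members named are those on a role list with a group mean of at least 5 CPM, the 10 largest called differences each way in the average with the same sign at all 4 times, the 3 largest each way without overlap of libraries at each time and between times, and the 6 smallest interaction p values. Up to 3 genes of smallest adjusted p are named for each list of partner or pathway genes, and both reductases were added. Members with fewer counts and the P450s outside the rule were named after their values were seen. The members and lists were chosen with earlier results of these data known.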

Additional observations from a re-analysis of the deposited data

Results flagged for a closer look

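In 33 of the 54 members named, the difference between CAM and reC3 itself differed between the 4 times. The test was the interaction of mode and time in edgeR's quasi-likelihood test with Benjamini-Hochberg adjustment. Of all 96 tested members 51 (53.1%) were called, against 46.8% of all genes. Members were named partly by small interaction p values and large differences at single times, so the share among them is not set against this background. No test for a single outlying value was applied to groups of 3 libraries.

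Several genes had a larger difference at MD than at MN and EN. The interaction had an adjusted p of 4.03e-08 for CYP78A10, 1.21e-05 for CYP76C5, 3.47e-05 for CYP76C4, 0.000144 for CYP705A6, 0.000327 for CYP81H1 and 0.000601 for CYP78A8. CYP710A2 had 0.0140, CYP94B3 0.00618 and CYP81D7 0.0242. The last was lost without reC3 MD replicate 1 or 2 (adjusted p = 0.0573 and 0.0631).

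Other genes passed the threshold at a later time but not at MD, among them CYP78A6, whose MD value was 0.96 (adjusted p = 0.0793). Among these CYP87A2 had an adjusted p of 0.0137, CYP708A3 0.00957, CYP708A2 0.0140, CYP708A1 0.0348, CYP71A12 0.000230, CYP78A6 0.00581 and CYP94C1 0.00746. CYP89A9 had 0.0263, ROT3 0.0377 and CYP711A1 0.0111. Without CAM MD replicate 2 the values were 0.288 for CYP708A1, 0.0711 for CYP708A2 and 0.0676 for CYP89A9, and ROT3 lost its call without any of 15 libraries (up to 0.107).

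The difference changed direction between times in CYP97B3 (0.000134), CYP71B25 (9.19e-05), PAD3 (0.00128), CYP72C1 (0.00866), CYP709B3 (0.0108), CPD (0.00607), CYP82C4 (0.0173), AT5G08250 (0.00268), LUT1 (0.00911) and CYP96A1 (0.00927), although not all of these changes pass the threshold at both times. CYP82C4 was lost without CAM MN replicate 2 or reC3 MN replicate 2 (0.0524 and 0.0616).

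In the remaining genes the difference kept its direction and changed in size, in DWF4 (0.0165), CYP714A2 (0.0131), UNE9 (0.00831) and CYP86A1 (0.0287). DWF4 was lost without CAM EN replicate 1 (0.0583), and CYP86A1 without CAM MN replicate 1 or 2 or reC3 MN replicate 1 or 2 (0.0905, 0.0736, 0.0705 and 0.0503). Scaling by library totals alone took the calls of UNE9 (0.0939) and CYP711A1 (0.0907) away. The calls of 25 of the 33 genes held in all 24 fits that left out 1 library.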

How the results depend on the processing

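The surplus of lower members in CAM kept its direction in the average under all alternatives run. With an adjusted p under 0.01 and a 2-fold change, the average gave 4 higher and 26 lower, MD 6 higher, ED 3 higher, MN 2 higher and 17 lower, EN 9 higher and 19 lower, MN minus MD 10 higher in CAM and 7 in reC3, and EN minus ED 3 lower in CAM and 19 higher and 10 lower in reC3. The average without EN gave 9 higher, and the fit of only the compared libraries 10 higher at EN. Library totals alone gave 4 higher at ED, 5 at MN, 17 lower from ED to EN in CAM, and 13 higher and 49 lower in reC3. They move the median of all genes by -0.225 at ED and 0.293 at EN, and the higher share of all calls from 47.4% to 30.1% at ED, from 45.2% to 62.4% at EN, from 49.1% to 68.5% and from 50.0% to 77.7% from MD to MN in CAM and reC3, and from 49.5% to 29.8% and from 50.3% to 14.4% from ED to EN. The share of counts on P450 genes became 0.152% (CAM) and 0.249% (reC3) at ED, 0.165% and 0.259% at MN, and 0.214% and 0.280% at EN with TMM-scaled totals, and 0.230% and 0.247% in reC3 at ED and MN without CYP87A2.

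Leaving out 1 library gave 13 to 16 higher and 43 to 52 lower in the average, 7 to 12 and 23 to 29 at MD, 7 to 12 and 36 to 45 at ED, 4 to 10 and 20 to 33 at MN, 12 to 18 and 25 to 32 at EN, 43 to 52 interaction calls, 13 to 20 and 37 to 46 from MD to MN in CAM, 33 to 42 and 4 to 8 from ED to EN in CAM, 10 to 16 and 34 to 46 from MD to MN in reC3, and 26 to 35 and 13 to 18 from ED to EN in reC3. The P450 share ran from 0.210% to 0.252% and 0.242% to 0.325% at MD, 0.166% to 0.190% and 0.325% to 0.360% at ED, 0.177% to 0.187% and 0.284% to 0.314% at MN, and 0.178% to 0.191% and 0.190% to 0.209% at EN in CAM and reC3.

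Single members changed direction in CYP71B25 (average without EN, -0.10), and with library totals alone from ED to EN in reC3 in CYP78A5 (-0.46), LUT1 (-0.09), CYP94D2 (-0.06), CYP97B3 (-0.48), CPD (-0.24), CYP706A3 (-0.38) and AT3G28740 (-0.25). The cause was not tested beyond the shift of scale. The replicate numbers did not pair the samples (correlations of same-numbered libraries from -0.200 to 0.367), and the fit with a replicate block gave 15 higher and 49 lower in the average and 8 changed calls among the single-gene results. Depth limits members under about 1 CPM.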

Other observations

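One gene with a P450 description falls outside the rule because its description lacks its first letter. AT5G25120 had 9.41 ± 1.49 CPM (SD, n = 3) in CAM at MD and 23.3 ± 4.89 CPM in reC3, with 2.80 ± 0.650 and 6.28 ± 0.653 CPM at ED, at 1.48 ± 0.350 and 3.87 ± 0.606 CPM at MN, and at 4.82 ± 3.57 and 3.75 ± 0.833 CPM at EN. It was lower in CAM by -0.88 ± 0.173 on the log2 scale in the average (SE, adjusted p = 0.000117 by edgeR).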
